A study of Homo sapiens with 6 samples.

Results

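A set of 10 human enzyme genes of the aldo-keto reductase and aldehyde dehydrogenase families, AKR1A1, AKR1B1, AKR1B10, AKR1C1, AKR1C2, AKR1C3, ALDH1A1, ALDH1A3, ALDH3A2 and ALDH1B1, were followed in MALAT1-depleted lung fibroblasts. They were chosen by name, with their response in these arrays already known, and a probeset was counted as a gene's own when the array annotation gave it that symbol alone. Of the 10 genes, 9 had a probeset of their own, which made 72 of the 232479 probesets. Of these, 7 genes had 3 or more and were tested as genes among 15417 such genes. AKR1A1 had 2 probesets and AKR1C1 had 1, and AKR1B1 had none and was not measured here.

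WI38 cells, a normal human diploid lung fibroblast line, had been transfected 2 times, 24 h apart, with an oligonucleotide at 100 nM. AS1 and AS2 are independent phosphorothioate-linked DNA antisense oligonucleotides against the nuclear long noncoding RNA MALAT1, and Ctr is a control oligonucleotide, so every group received an oligonucleotide and the transfection reagent. RNA from 2 samples per group was hybridised to exon arrays, which gave 6 arrays. The authors ran these exon arrays to look for changes in alternative splicing. Here the comparison asks how gene and probeset levels changed on depletion of MALAT1 in fibroblasts, and exon use was not tested. The groups rest on a single cell line.

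Aldo-keto reductases are soluble NADPH-dependent enzymes that reduce aldehydes and ketones to alcohols, among them sugars, steroids, prostaglandins, retinal and the reactive aldehydes left by lipid peroxidation. Aldehyde dehydrogenases work in the opposite direction and use NAD or NADP to oxidise aldehydes to acids, such as retinal to retinoic acid. The AKR1C genes lie side by side on chromosome 10 and are so alike in sequence that array probes for one can bind transcripts of another.

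The likeness is seen at the gene starts. The windows below run from 250 bases before to 50 bases after the start and come from RefSeq on GRCh38.p14. AKR1C1 lies at chr10:4963165-4963464 on the plus strand and AKR1C2 at chr10:5003808-5004107 on the minus strand. They are printed because the array gave these neighbours unlike readings. Within the aligned positions, capitals mark the bases that differ between the windows or that the other window lacks. The start of the AKR1C1 window and the end of the AKR1C2 window reach beyond the alignment and are left in small letters.
AKR1C1: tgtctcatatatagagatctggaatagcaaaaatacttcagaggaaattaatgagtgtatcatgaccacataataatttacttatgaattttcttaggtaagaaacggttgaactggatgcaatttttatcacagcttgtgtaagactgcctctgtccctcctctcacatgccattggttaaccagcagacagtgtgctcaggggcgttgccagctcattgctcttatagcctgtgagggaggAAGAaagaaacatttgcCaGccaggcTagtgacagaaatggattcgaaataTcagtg
AKR1C2: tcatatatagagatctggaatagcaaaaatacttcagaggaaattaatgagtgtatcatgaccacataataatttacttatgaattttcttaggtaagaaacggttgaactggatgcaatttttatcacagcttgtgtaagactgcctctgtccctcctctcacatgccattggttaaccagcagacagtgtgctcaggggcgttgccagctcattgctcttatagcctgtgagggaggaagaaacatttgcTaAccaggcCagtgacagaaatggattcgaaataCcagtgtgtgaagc
Over the 296 aligned positions 288 were identical, or 97.3%. The last 50 bases of each window are transcribed, so the likeness reaches into the RNA. All 4 capitals of the AKR1C2 window lie in those bases, however, so the likeness is lower there than before the start. Probe sequences were not compared. The windows of AKR1C3, which has 2 entries, matched these at 74.3 to 75.7% of aligned positions. The antioxidant response element core TGACNNNGC, a motif of oxidative stress genes, was found on neither strand in the 12 windows listed for members, against 13.3% of 35116 windows of this length over all genes. AKR1B10 had no entry. With a share of 13.3%, 12 windows are too few to set the members apart from other genes, and the windows of AKR1B1 overlap each other. Sites more than 250 bases before the start were not searched.

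MALAT1 was checked first. Its log2 level was 9.23 and 7.82 with AS1 and 8.19 and 8.13 with AS2, against 12.00 and 11.97 with Ctr, a mean fall 12.5-fold. Array medians lay between 7.34 and 7.36. Arrays of a group correlated at 0.984 to 0.987 across probesets, and AS arrays correlated with Ctr arrays at 0.959 to 0.968. All 12 fibroblast markers tested, such as COL1A1 and VIM, lay above the median gene level of Ctr cells, at percentiles of 64.2 to 99.8. None of the 11 epithelial, endothelial and leukocyte markers tested did (2.0 to 39.3). The mean of the fibroblast markers was 10.47 and 10.49 with AS1 and 10.07 and 10.39 with AS2, against 10.65 and 10.85 with Ctr. In the mean of both oligonucleotides 5 of the 12 passed the test as lower, against 10.7% of all genes. With AS1 alone 3 did (8.17% of all genes) and with AS2 alone 7 (9.29%). Of the 11 markers of other cell types 1 was called, as higher, against 14.1% of all genes. It was PECAM1 of endothelium and leukocytes (0.76 ± 0.12 SE, limma adjusted p = 0.00122). PECAM1 read 5.74 and 5.54 with AS1 and 5.31 and 5.38 with AS2, against 4.84 and 4.62 with Ctr. The part of these markers in the results on the enzymes was not tested. In bulk RNA, fewer cells of a type and less RNA per cell cannot be told apart.

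AKR1B10 was higher and AKR1C2 lower in all 4 MALAT1-depleted samples than in both control samples. AKR1C3 had a mean change of -0.36 on the log2 scale, and the 4 aldehyde dehydrogenases had mean changes of -0.12 to -0.01. The genes were selected with these changes known, so the values against Ctr are a description and carry no test. At an adjusted p under 0.05 in limma, 2 of the 7 genes were called in the mean of both oligonucleotides, 1 higher and 1 lower, and the same counts held with AS1 and with AS2. Over all genes 24.8% were called in the mean, split into 14.1% higher and 10.7% lower. AS1 alone gave 20%, split into 11.8% higher and 8.17% lower. AS2 alone gave 20.9%, split into 11.6% higher and 9.29% lower. The median change was -0.10 over the 7 genes and -0.04 over all genes. AS1 and AS2 share the Ctr arrays. All AS arrays were above both Ctr arrays in 1 of the 7 genes and below both in 2, against 21.5% and 20% of all genes.

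**Figure D1:**
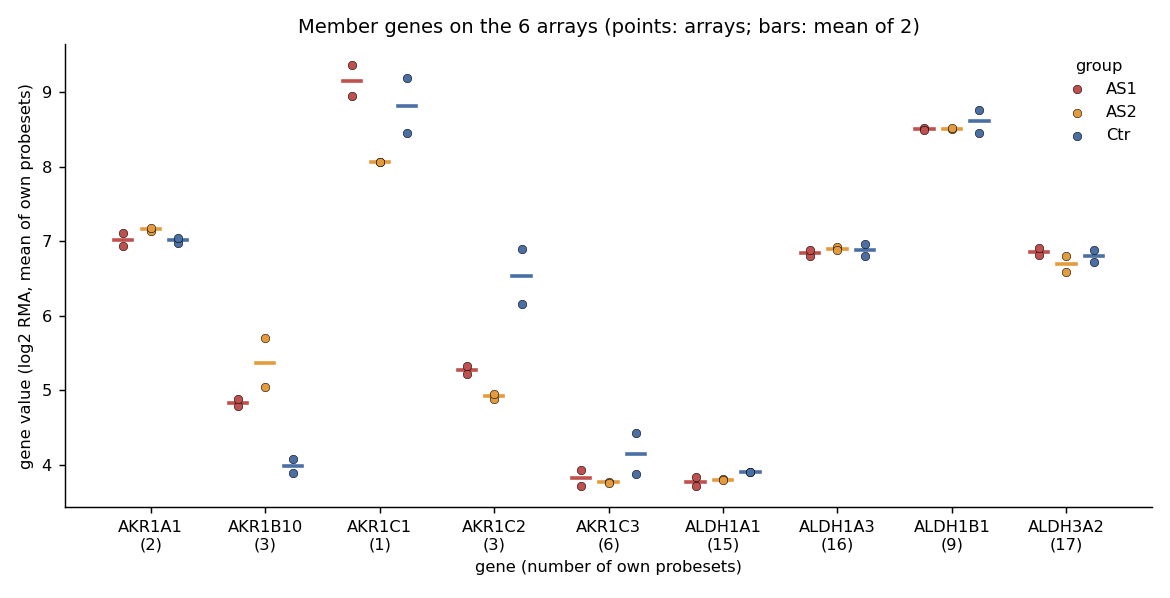
Log2 RMA value of each measured gene on the 6 arrays (vertical axis), as the mean of its own probesets, whose number stands under the gene. Points are arrays and bars the mean of 2, with AS1, AS2 and Ctr from left to right. AKR1B10 lies above both Ctr arrays on all AS arrays, AKR1C2 below them, and AKR1C1 reads lower with AS2 than with AS1.

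AKR1B10 is an aldose reductase-like enzyme, known from gut epithelium and from several carcinomas, that reduces retinal and lipid aldehydes. Its log2 level was 4.79 and 4.88 with AS1 and 5.05 and 5.70 with AS2, against 4.08 and 3.90 with Ctr. The groups did not overlap, and the second AS2 array stood highest. The change was 1.12 ± 0.17 (SE) on the log2 scale, or 2.17-fold, with 0.85 for AS1 and 1.39 for AS2. In size it exceeded the change of 97.3% of all genes tested. The level in Ctr cells was at percentile 5.4 of all genes, so the gene was among the dimmest on the Ctr arrays. All 3 of its probesets lay under the 25th percentile of probeset brightness.

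Of the 3 AKR1B10 probesets, 2 carried the change. Probeset 3025442 read 5.10 and 5.10 with AS1 and 5.42 and 6.42 with AS2, against 3.91 and 3.39 with Ctr. Probeset 3025456 read 5.51 and 5.78 with AS1 and 5.92 and 6.26 with AS2, against 4.45 and 4.56 with Ctr. In both, every AS array was above every Ctr array. The dimmest in depleted cells, probeset 3025457, had groups that overlapped. It read 3.77 and 3.77 with AS1 and 3.82 and 4.42 with AS2, against 3.87 and 3.74 with Ctr. AKR1B1 and AKR1B15, which share the AKR1B name, had no probeset of their own. Whether the AKR1B10 probesets bound transcripts of these genes was not tested.

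AKR1C2 is a 3-alpha-hydroxysteroid dehydrogenase that inactivates dihydrotestosterone and other steroids. Its log2 level was 5.33 and 5.22 with AS1 and 4.89 and 4.96 with AS2, against 6.90 and 6.16 with Ctr. The AS arrays lay close together and below both controls, while the controls lay far apart. The change was -1.43 ± 0.18 (SE), a 2.70-fold fall, with -1.26 for AS1 and -1.61 for AS2, and in size it exceeded that of 98.9% of genes. The gap between the Ctr arrays, -0.74 for the second minus the first, was wider than in 99.3% of genes, where the median gap was 0.16. Without the first Ctr array the change was -1.06, and without the second it was -1.80.

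All 3 AKR1C2 probesets read lower with both oligonucleotides. Probeset 3274779 read 5.51 and 5.64 with AS1 and 4.96 and 4.59 with AS2, against 7.69 and 7.04 with Ctr. The brightest, 3274763, read 6.97 and 6.52 with AS1 and 6.38 and 6.27 with AS2, against 8.41 and 7.49 with Ctr. No AS array reached a Ctr array in these. The dim probeset 3274783 read 3.50 and 3.49 with AS1 and 3.33 and 4.003 with AS2, against 4.59 and 3.95 with Ctr, and its groups overlapped. With the median of the 3 probesets in place of the mean, the change of the gene was -2.19.

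AKR1C1 converts progesterone to a weaker steroid and also reduces lipid aldehydes. Its single probeset, 3233021, was bright and read 8.95 and 9.37 with AS1 and 8.07 and 8.06 with AS2, against 9.19 and 8.46 with Ctr. The AS1 arrays straddled the higher control and the AS2 arrays lay under both, so that the change was 0.33 with AS1 and -0.76 with AS2. Without the first Ctr array these were 0.70 and -0.39, and without the second they were -0.03 and -1.13. A further probeset, 3233004, was annotated to AKR1C1 and AKR1C3 together. It read 7.21 and 7.05 with AS1 and 5.14 and 5.70 with AS2, against 7.46 and 6.79 with Ctr. The change there was 0.01 with AS1, or -0.33 to 0.34 with either Ctr array left out, and -1.71 with AS2.

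AKR1C3, also named prostaglandin F synthase, reduces prostaglandin D2 and forms testosterone from androstenedione. Its log2 level was 3.71 and 3.94 with AS1 and 3.77 and 3.76 with AS2, against 4.42 and 3.88 with Ctr. The groups overlapped, and the change of -0.36 ± 0.15 (SE) rested on the first Ctr array. Without that array it was -0.09, and without the second Ctr array it was -0.63, at which the gene was called. All 6 AKR1C3 probesets were under the 25th percentile of brightness. Of these 5 had a negative mean change, the lowest being -0.90 in probeset 3233077, which read 4.12 and 4.35 with AS1 and 4.26 and 4.47 with AS2, against 5.45 and 4.94 with Ctr. The brightest in depleted cells, 3233081, had a change of 0.36, and its groups overlapped.

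The AKR1C readings share a feature of the control arrays. In 10 of the 11 AKR1C probesets, the one annotated to 2 genes included, the second Ctr array read lower than the first, against 51.4% of all probesets. Whether these probesets bound each other's transcripts, and how much each gene contributed to each probeset, was not tested.

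**Figure D2:**
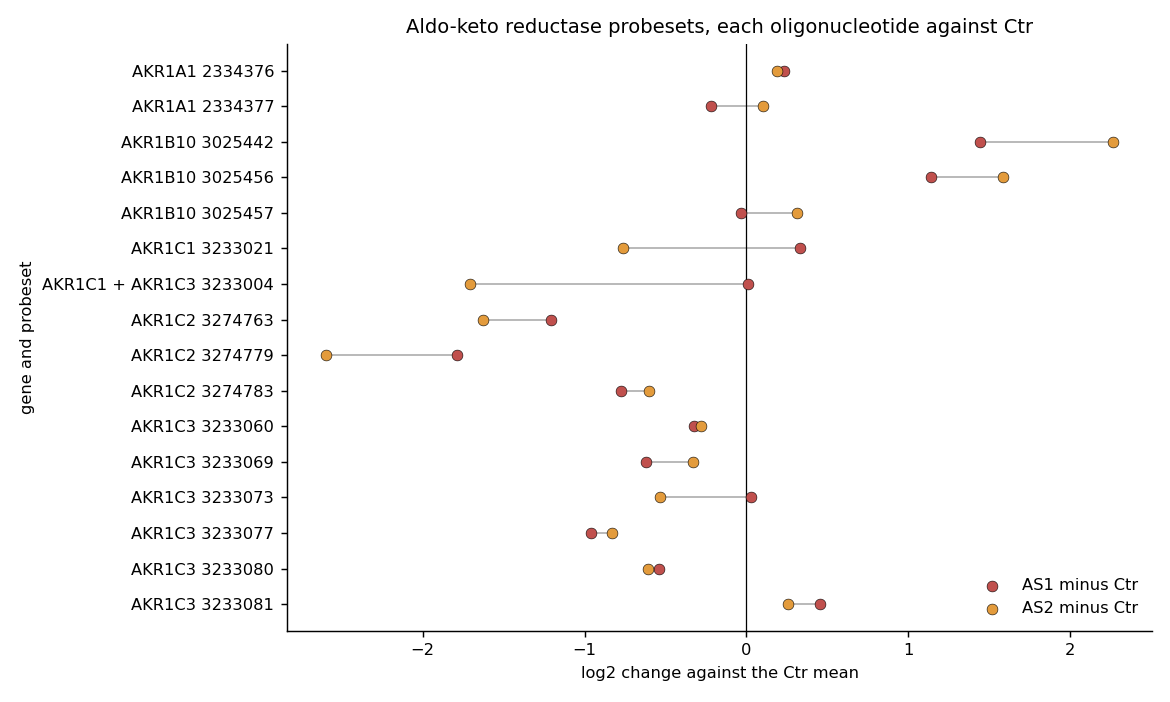
Log2 change of every aldo-keto reductase probeset against the Ctr mean (horizontal axis), for AS1 and AS2, with one row per probeset and the probeset annotated to AKR1C1 and AKR1C3 together. The 2 AKR1B10 probesets without overlap lie between 1.14 and 2.27, all AKR1C2 probesets lie under 0, and the AKR1C1 and shared probesets are lower with AS2 alone.

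AKR1A1, a general aldehyde reductase found in most tissues, read 7.11 and 6.94 with AS1 and 7.14 and 7.19 with AS2, against 6.98 and 7.05 with Ctr as the mean of its 2 probesets. The groups overlapped. Probeset 2334376 differed from Ctr by 0.23 with AS1 and 0.19 with AS2, and probeset 2334377 by -0.22 with AS1 and 0.10 with AS2.

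The 4 aldehyde dehydrogenase genes held 57 of the probesets. None of these probesets passed the test against Ctr. Over all 72 member probesets 5 did in the mean of both oligonucleotides, namely 2 of AKR1B10 as higher and 2 of AKR1C2 and 1 of AKR1C3 as lower, against 10.8% of all probesets (5.61% higher and 5.15% lower). In 6 of the 72 all AS arrays were above both Ctr arrays and in 14 all were below, against 17.3% and 18.6% of all probesets.

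ALDH1B1 is a mitochondrial enzyme that oxidises acetaldehyde and retinal, and it was the most strongly read of the 4 relative to other genes (percentile 76.2 of Ctr levels). Its level was 8.53 and 8.49 with AS1 and 8.50 and 8.52 with AS2, against 8.46 and 8.76 with Ctr. The AS arrays fell between the controls, and the change was -0.10 ± 0.12 (SE). Over its 9 probesets changes ran from -0.50 to 0.24, the highest being 3169339, which overlapped. The lowest, 3169341, read 9.10 and 9.08 with AS1 and 9.25 and 9.29 with AS2, against 9.56 and 9.81 with Ctr, with no overlap. The brightest, 3169338, had a change of -0.05.

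ALDH1A3 makes retinoic acid from retinal. Its level was 6.80 and 6.88 with AS1 and 6.93 and 6.88 with AS2, against 6.80 and 6.96 with Ctr. The groups overlapped, with a change of -0.01 ± 0.11 (SE). Over its 16 probesets the changes ran from -0.50 in 3611637 to 0.21 in 3611628, both with overlap. Of the changes 10 were positive and 6 negative, and the brightest, 3611629, had a change of 0.13.

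ALDH3A2 is the fatty aldehyde dehydrogenase of the endoplasmic reticulum, whose loss causes Sjögren-Larsson syndrome. Its level was 6.82 and 6.91 with AS1 and 6.60 and 6.80 with AS2, against 6.72 and 6.89 with Ctr. These overlapped, and the change was -0.02 ± 0.12 (SE). Its 17 probesets spread most widely among the 4 genes, from -0.71 in 3714098 to 0.60 in 3714087. Probeset 3714087 read 7.37 and 7.35 with AS1 and 6.76 and 6.79 with AS2, against 6.21 and 6.73 with Ctr. Probeset 3714098 read 4.97 and 4.98 with AS1 and 5.03 and 4.27 with AS2, against 5.50 and 5.55 with Ctr. Both lacked overlap, in opposite directions. The brightest in Ctr cells, 3714071, had a change of -0.07 and overlapped.

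ALDH1A1 is the cytosolic retinal dehydrogenase used as a marker of many stem cells. Its level was 3.72 and 3.84 with AS1 and 3.81 and 3.79 with AS2, against 3.91 and 3.91 with Ctr. All AS arrays were under the controls, by -0.12 ± 0.11 (SE), at a level (percentile 4.7) where 13 of its 15 probesets lay under the 25th percentile of brightness. Of these 15, 10 had a negative and 5 a positive change, and in 5 all AS arrays were below both Ctr arrays. The lowest of those, 3209752, read 3.01 and 3.18 with AS1 and 3.39 and 3.25 with AS2, against 3.76 and 3.80 with Ctr, and the brightest, 3209762, had a change of -0.34. The only one with all AS arrays above, 3209763, read 6.09 and 5.92 with AS1 and 6.20 and 6.08 with AS2, against 5.41 and 5.71 with Ctr.

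**Figure D3:**
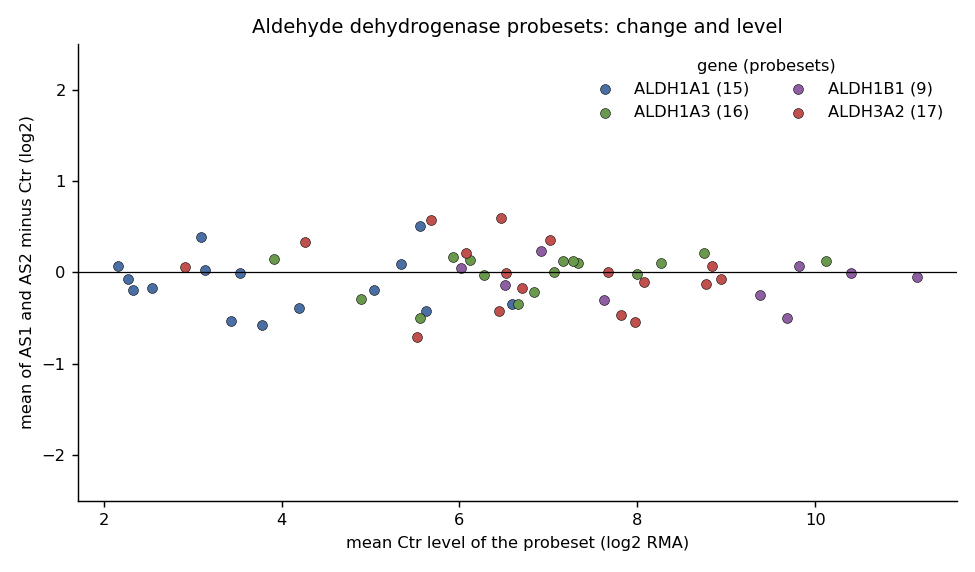
Mean log2 change of AS1 and AS2 against Ctr (vertical axis) of the 57 aldehyde dehydrogenase probesets by their mean level in Ctr cells (horizontal axis, log2 RMA), coloured by gene. The changes lie between -0.71 and 0.60 at all levels, and most ALDH1A1 probesets are at the dim end.

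AS2 was then set against AS1, a difference that the choice of the genes had not used and that could be tested. None of the 7 genes was called in limma, against 1.08% of all genes, and 1 had an unadjusted p under 0.05 in limma and 0 in an analysis without moderation of the variance. Both AS2 arrays were above both AS1 arrays in AKR1B10, and below them in AKR1C2 and ALDH3A2, against 17% and 19.3% of all genes. The gene under 0.05 was AKR1B10, with 5.05 and 5.70 in AS2 cells and 4.79 and 4.88 in AS1 cells, a difference of 0.54 (95% interval 0.11 to 0.96, adjusted p = 0.341). Without the second AS2 array it was 0.21, and without the first it was 0.86. AKR1C2 differed by -0.35 (95% interval -0.80 to 0.10, adjusted p = 0.688) and AKR1C3 by -0.06 (-0.45 to 0.33). For the dehydrogenases the differences were 0.02 in ALDH1A1 (-0.25 to 0.30), 0.06 in ALDH1A3 (-0.22 to 0.35), -0.16 in ALDH3A2 (-0.47 to 0.14) and -0.001 in ALDH1B1 (-0.31 to 0.31). The intervals are not adjusted for the number of genes, and a p above the threshold does not show that the oligonucleotides act alike.

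The AKR1C1 probeset gave the widest difference among the genes. It read 8.07 and 8.06 in AS2 cells and 8.95 and 9.37 in AS1 cells, a difference of -1.09. In the fit over genes with 1 or more probesets its interval was -1.62 to -0.57 and its adjusted p 0.0892 (0.664% of those genes were called), and in the fit over single probesets the adjusted p was 0.427. The probeset annotated to AKR1C1 and AKR1C3 read 5.14 and 5.70 in AS2 cells and 7.21 and 7.05 in AS1 cells, a difference of -1.72 ± 0.29 (SE) with an adjusted p of 0.227. That p became 0.0343 when the variance prior of limma was fitted with its trend and robust options. Probeset 3274779 of AKR1C2 differed by -0.81 (adjusted p = 0.545), also lower in AS2 cells. No probeset among the 72, and 0% of the 232479, was called between the oligonucleotides, while 4 of the 72 had an unadjusted p under 0.05 in limma and 1 in an analysis without moderation of the variance.

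**Figure D4:**
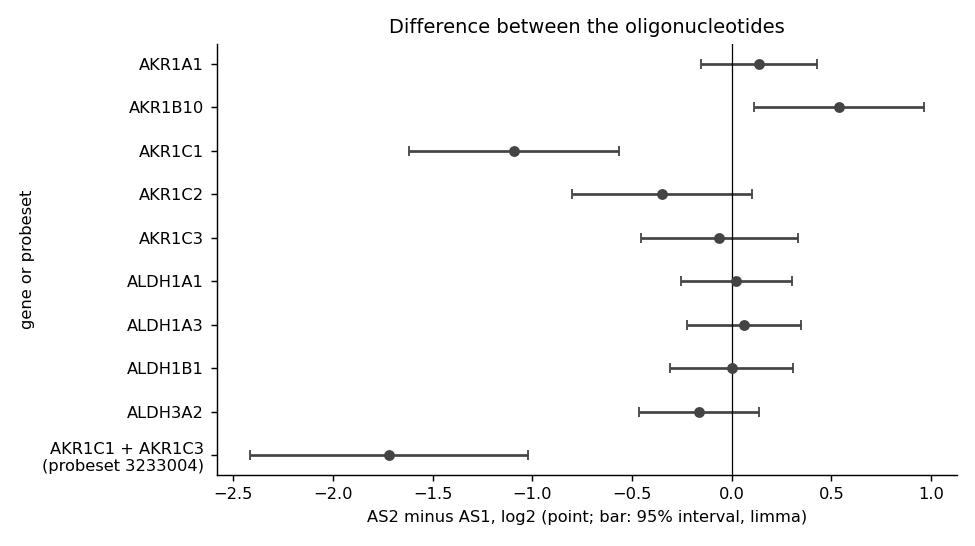
Difference of AS2 minus AS1 on the log2 scale (horizontal axis) for each measured gene and for the probeset annotated to AKR1C1 and AKR1C3. Points are the difference and bars the 95% interval from limma. The intervals of AKR1B10, AKR1C1 and the shared probeset leave out 0. Their adjusted p-values were 0.341, 0.0892 and 0.227, and with the trend and robust options that of the shared probeset was 0.0343.

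The genes whose 6 array values, taken relative to their own Ctr mean, lay nearest to AKR1B10 were LYVE1 (Euclidean distance 0.25 on the log2 scale), ADAM5P (0.30) and BMP8A (0.35), among 15417 genes. Nearest to AKR1C2 were ANO4 (0.30), FIBIN (0.45) and TDRD7 (0.46). In the mean of both oligonucleotides, the change was 1.11 for LYVE1 and -1.49 for ANO4.

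The wider families were read from lists set by family or pathway membership. These lists, like the members, were chosen with earlier results of these data known, so their p-values against Ctr are read as a description. Of the other aldo-keto reductases 2 of 8 tested were called, both higher, against 24.8% of all genes called (14.1% higher), with a median change of -0.09 against -0.04 over all genes. AKR7A3, which reduces aflatoxin dialdehyde, was 8.21 and 7.91 with AS1 and 8.09 and 8.18 with AS2, against 7.33 and 7.43 with Ctr, a rise of 0.72 ± 0.12 (SE, adjusted p = 0.00181). All AS arrays were above the controls. With the median of its probesets the rise was 0.34 (adjusted p = 0.425). AKR1CL2, now named AKR1E2, was dim in Ctr cells (percentile 16.8 of genes). It rose by 0.49 ± 0.11 (adjusted p = 0.00786). Without the second Ctr array the rise was 0.47 and the call was lost.

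Of the other aldehyde dehydrogenases 1 of 12 tested was called, against 24.8% of all genes (median change -0.12). ALDH8A1, which can oxidise 9-cis-retinal, was dim in Ctr cells (percentile 19.0 of genes). It rose by 0.46 ± 0.11 (adjusted p = 0.0113), with 0.23 for AS1, which was not called alone, and 0.68 for AS2. The call was lost without the second Ctr array (adjusted p = 0.0733), and with the median of its probesets, at 0.23 (adjusted p = 0.307). ALDH2, the main enzyme of acetaldehyde clearance, passed the test with AS2 alone (-0.41, adjusted p = 0.0464, against -0.17 with AS1). Its difference between the oligonucleotides was not called. The call with AS2 lay close to the threshold of 0.05, and how it fares under other settings is not given.

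Among 22 alcohol, retinol and carbonyl reductase genes 2 rose and 2 fell, against 14.1% and 10.7% of all genes (median change -0.13). RDH10 oxidises retinol to retinal, the substrate of the retinal dehydrogenases. It was 11.07 and 11.08 with AS1 and 10.80 and 11.02 with AS2, against 9.77 and 9.71 with Ctr, which is far outside the spread of either group. Its rise of 1.25 ± 0.11 (SE, adjusted p = 4.4e-05) was the largest in this list. ADH1B and ADH1A, near-identical alcohol dehydrogenases whose probes may bind each other's transcripts, were dim in Ctr cells (percentiles 10.4 and 20.1 of genes). ADH1B (-0.53 ± 0.13, adjusted p = 0.0142) and ADH1A (-0.50 ± 0.13, adjusted p = 0.0175) fell. Without the second Ctr array these were -0.33 (adjusted p = 0.175) and -0.31 (adjusted p = 0.206). ADH1B was also lost without the second AS2 array (0.0651) and with the median of its probesets (0.0621), and ADH1A without the first or second AS2 array (0.0644 and 0.0582). RDH14 rose by 0.34 ± 0.11 (adjusted p = 0.039), with 0.22 for AS1, which was not called alone, and 0.47 for AS2. The call in the mean was lost without any single array of the 6, and with the median of its probesets (adjusted p = 0.213).

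Of 16 genes of retinoic acid and retinol handling 1 was called, against 24.8% of all genes (median change -0.04). RARA, the retinoic acid receptor alpha, rose by 0.41 ± 0.11 (adjusted p = 0.019). The call was lost without the first AS2 array (0.0676), the first Ctr array (0.111) or the second Ctr array (0.0752), and with the median of its probesets (0.1).

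Among 23 partners in polyol, prostaglandin and steroid metabolism 6 rose and 2 fell, against 14.1% and 10.7% of all genes (median change 0.02). PTGS2, the inducible prostaglandin synthase, was 7.28 and 7.20 with AS1 and 6.49 and 6.51 with AS2, against 5.46 and 5.59 with Ctr, a rise of 1.35 ± 0.11 (SE, adjusted p = 2.2e-05). The 3 groups lay apart from each other, with AS1 highest. HSD17B2, which inactivates oestradiol and testosterone, was 7.91 and 8.18 with AS1 and 7.74 and 8.34 with AS2, against 6.99 and 5.70 with Ctr, a rise of 1.69 ± 0.29 (SE, adjusted p = 0.00192). It was 2.34 without the first Ctr array and 1.05 without the second, and the call was lost with the trend and robust options (adjusted p = 0.0676). HSD17B3, which makes testosterone, was dim in Ctr cells (percentile 8.8 of genes). It rose by 0.72 ± 0.12 (adjusted p = 0.0014), with 0.43 for AS1, which was not called alone, and 1.02 for AS2. HSD17B4, a peroxisomal enzyme, changed by -0.64 ± 0.12 (adjusted p = 0.00272). STS, the steroid sulfatase, changed by -0.60 ± 0.11 (adjusted p = 0.00247), with -0.30 for AS1 (adjusted p = 0.129) and -0.91 for AS2 (adjusted p = 7e-04), and its difference between the oligonucleotides was not called (adjusted p = 0.0561). HSD17B11 rose by 0.53 ± 0.16 (adjusted p = 0.0299), with 0.77 for AS1 and 0.30 for AS2, which was not called alone. The call in the mean was lost without the second AS2 array (0.0982) or the first Ctr array (0.177), and with the median of its probesets, at 0.21 (0.38). The other 2 called genes, PTGS1 (0.40) and SRD5A3 (0.35), were named after their values were seen. PTGS1 was not called with AS1 alone (adjusted p = 0.158), nor SRD5A3 with AS2 alone (adjusted p = 0.144). PTGS1 lost its call without the second AS1 array, the second AS2 array or either Ctr array (0.0535 to 0.165). SRD5A3 lost it without any one of the 6 arrays (0.0596 to 0.171) and with the median of its probesets (0.0875).

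**Figure D5:**
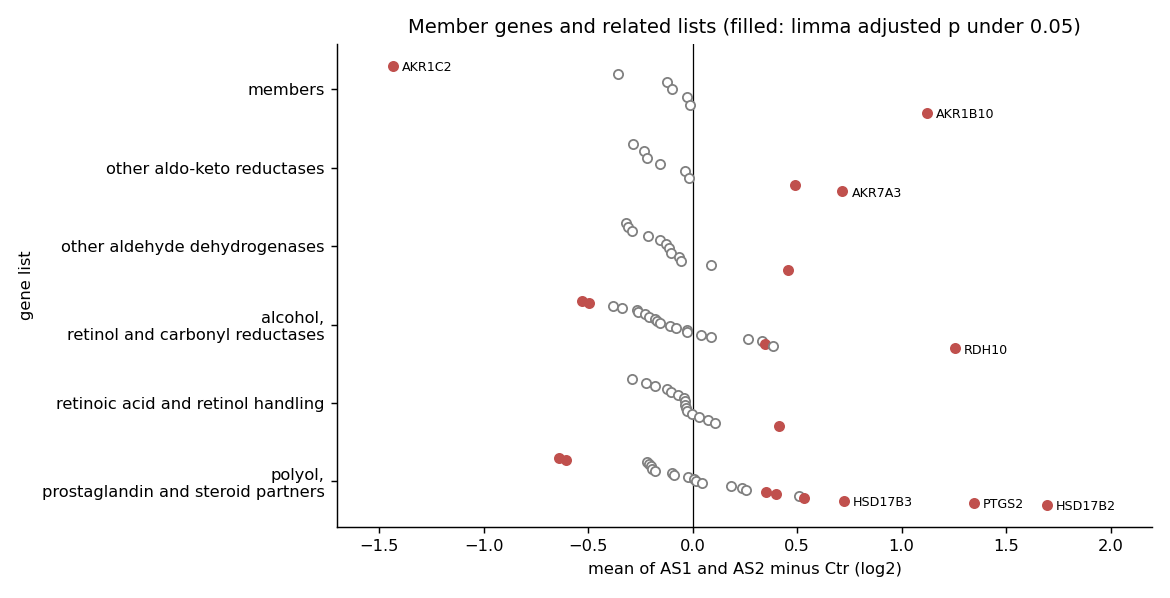
Mean log2 change of AS1 and AS2 against Ctr (horizontal axis) for the 7 tested members and for each related gene list, one point per gene, filled where the limma adjusted p was under 0.05. The filled members, AKR1C2 at -1.43 and AKR1B10 at 1.12, were chosen with these changes known, and most genes of every list lie near 0.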

How the data were processed

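The deposited values, on the log2 scale, cover 232479 exon probesets on 6 arrays (AS1, AS2 and Ctr, 2 each) and entered the tests as they stood. The authors used 100 ng of total RNA per sample and RMA in Partek (no version is stated in the labels or methods). RMA corrects background and equalises the distributions of the arrays, so a level is relative to the other probesets. Symbols came from the platform annotation, which can be old: of the probesets, 13364 have no symbol and 2335 have more than 1, leaving 216780 with a single one. The value of a gene was the mean of its own probesets, and genes with 3 or more were tested.

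One fit in limma 3.58.1 (R 4.3.3) to all arrays and the 3 groups gave the contrasts AS1 against Ctr, AS2 against Ctr, their mean against Ctr and AS2 against AS1, with 3 residual degrees of freedom and 7.45 prior degrees of freedom. A call needs a p under 0.05 after Benjamini-Hochberg adjustment across the genes tested, or across probesets in a second fit. Nothing says that the samples were separate cultures, so the p-values speak only of spread among these samples, which may be technical. Precision is limited by the number of arrays. The methods' ANOVA, with over 2-fold and p under 0.001 as threshold, was an alternative, beside other summaries, filters and normalizations and each array left out in turn. The code was tested on simulated data.

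Members and lists were chosen with earlier results of these data known. All members were described. The text names up to 6 called genes of each list by size of change, for each member the probesets with the highest and lowest change and the brightest, and the 3 genes nearest to AKR1B10 and AKR1C2. Platform positions were not used.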

Additional observations from a re-analysis of the deposited data

Results flagged for a closer look

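PTGS2, the inducible prostaglandin synthase among the partner genes, differed between the oligonucleotides by a test of the difference itself. Its log2 level was 6.49 and 6.51 in AS2 cells and 7.28 and 7.20 in AS1 cells, a difference of -0.74 ± 0.13 (SE, limma adjusted p = 0.0225), and it was higher than in Ctr cells with both. In limma 1 of the 23 partners tested was called between the oligonucleotides, against 1.08% of all genes. Without moderation of the variance 0 of 15417 genes were called, so the call of PTGS2 was lost there. None of the 7 members tested as genes passed the limma test.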

How the results depend on the processing

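With 2 arrays a group, 1 array can decide a call. AKR1B10, AKR1C3 and ALDH1A1 lay near the dim end of the arrays (percentiles 13.5, 5.2 and 4.6 of the mean over all arrays). AKR1B10 and AKR1C2 kept their direction against Ctr under every alternative that tested them, but the 2 calls among members became 0 in all 3 comparisons with Ctr when only probesets or only genes at or above the 25th percentile were used, since neither gene was then tested. The filters read the mean over all arrays, so they were not independent of the change: AKR1C2 was at percentile 39.2 of genes in Ctr cells but 23.9 over all arrays, and kept 2 of its 3 probesets. The calls were also 0 with the methods' ANOVA after adjustment. With AS1, 1 member passed the methods' threshold. With each array left out, the count ran from 2 to 3.

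Counts in the lists moved as follows. Other aldo-keto reductases (2 called) gave 1 with the median of probesets, with genes at or above the 25th percentile and with the ANOVA, 0 at the methods' threshold and 1 to 2 with an array left out. Other aldehyde dehydrogenases (1 called) gave 2 with genes at or above the 25th percentile or quantile normalization again. They gave 3 with trend and robust options, 0 at the methods' threshold and 0 to 1 with an array left out. ALDH8A1, the gene called, was not tested under that gene filter, so the 2 called there were other genes. With the median the count stayed at 1, but the gene called was not ALDH8A1. Alcohol, retinol and carbonyl reductases (4 called) gave 2 with the median, with brighter probesets and with the ANOVA, 1 at the methods' threshold and 1 to 6 with an array left out. The retinoic acid list (1 called) gave 0 with the median, the ANOVA and the methods' threshold, and 0 to 1 with an array left out. The partner list (8 called) gave 2 with the ANOVA, 2 at the methods' threshold and 5 to 8 with an array left out. The cause was not tested.

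Small changes against Ctr in the mean of both oligonucleotides changed sign with the Ctr array left out. Without the first and without the second, they were -0.09 and 0.07 in ALDH1A3 and -0.11 and 0.06 in ALDH3A2. In ALDH1B1 they were -0.25 and 0.05, and in the AKR1C1 probeset 0.15 and -0.58. The changes of ALDH1A1 and AKR1C3 stayed negative. Small AS2 minus AS1 differences changed sign as well. AKR1C3 (-0.06) was 0.0103 with the median and -0.174 to 0.05 with an array left out, above 0 without AS1 replicate 2. ALDH1A1 (0.02) ran from -0.036 to 0.0826 with an array left out, below 0 without AS1 replicate 1. ALDH1B1 (-0.001) was 0.15 with the median and -0.0185 to 0.0164 with an array left out, above 0 without AS1 replicate 1 and without AS2 replicate 1. AKR1A1 probeset 2334376 (-0.05) ran from -0.154 to 0.0635, above 0 without AS1 replicate 1.

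Replicate numbers did not pair the samples alike in all groups. Deviations from the group mean correlated at -0.34 between AS1 and AS2, -0.51 between AS1 and Ctr and 0.39 between AS2 and Ctr. The arrays may thus share a structure that the replicate number does not follow in AS1. A block by replicate number cannot account for such a structure, and its source was not tested. With the replicate number as a block, 2 members were called in each comparison with Ctr and 0 between AS2 and AS1. Calls over all genes became 3150 in place of 3827 in the mean and 84 in place of 166 between AS2 and AS1. In the mean, RDH14 (adjusted p = 0.0839), PTGS1 (0.052) and SRD5A3 (0.0831) were lost under the block. This left 3 calls in the alcohol list and 6 in the partner list. No other gene of the 5 related lists that was named for a call in the mean was lost. For ALDH2, called with AS2 alone, the result under the block is not given.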
